A study of Mus musculus with 16 samples.

Results

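The genes described here are 43 DNA replication genes of the mouse, measured in RNA-seq libraries of sorted double-positive (DP) thymocytes. They were chosen by name, and all 43 were found by Ensembl identifier among the 55335 identifiers of the files from mice with a stated age and the 54532 of the files without one. All 43 passed the filter on low counts in every comparison. They fall into 8 roles: 10 genes of origin licensing, 6 of helicase activation, 9 polymerase and primase subunits, 6 of the sliding clamp and its loader, 3 of the single-strand binding protein, 2 of lagging-strand processing and ligation, 4 of nucleotide supply, and 3 of chromatin assembly and histone mRNA.

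DP thymocytes, the immature T cells that carry both CD4 and CD8, were sorted from mouse thymus, and their total RNA was sequenced by BGI's protocol. The 16 libraries form 5 groups: old WT (n = 4), young METTL3 KO (n = 3), young WT (n = 3), and METTL3 KO (n = 3) and WT (n = 3) with no age stated. METTL3 is the catalytic subunit of the enzyme that places N6-methyladenosine on RNA. The labels give neither the ages and the strain nor the promoter and cell type behind the knockout, nor do they say that the libraries come from separate animals, so a p-value measures only the spread between these libraries.

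In eukaryotic cells, replication origins are licensed in G1 when the origin recognition complex, CDC6 and CDT1 load the ring-shaped MCM2-7 helicase onto DNA. In S phase CDC45 and the GINS complex join MCM to form the active helicase, polymerase alpha with primase lays down primers, and polymerases delta and epsilon extend them while held by the PCNA clamp that replication factor C (RFC) loads. Many of these genes are transcribed under E2F factors as cells leave G1. In the thymus, immature cells divide rapidly around the transition into the DP stage, and most DP cells afterwards are small and no longer divide.

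Gene counts summed to between 9781368 and 10307780 per library in the 10 libraries with an age. They summed to between 10575795 and 13740694 in METTL3 KO libraries with no age and between 15927134 and 16167074 in WT libraries with no age. Levels are given as CPM, the counts of a gene scaled to a common library size with edgeR's TMM factors. The 2 sets of files differ in more than the age label. Reads assigned to no gene feature made up 47.5% to 51.2% of the entries in the set with an age. In the set without, they made up 11.8% to 15.0% in METTL3 KO and 7.23% to 7.6% in WT libraries. The 2 sets were therefore fitted apart. Mettl3 itself averaged 63.7 ± 1.33 CPM in the libraries labelled young METTL3 KO and 63.8 ± 3.66 CPM in young WT (SD, n = 3 each), so the counts show no loss of its RNA there, and in the set with no age it averaged 32.7 ± 5.82 CPM in METTL3 KO and 48.9 ± 4.96 CPM in WT (SD, n = 3 each). A count over a whole gene cannot show the loss of a single exon. The 9 DP markers were found in every library, Cd4, Cd8a, Cd8b1, Rag1 and Rag2 among them. Old WT replicate 3 stood apart by markers of other cells, with summed dendritic markers of 564.8 CPM against 32.2 to 81.6 CPM in the other old WT libraries and 23.8 to 42.3 CPM in young WT.

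In young WT libraries the 43 genes covered a 79.5-fold range of level per transcript length. Pcna, the sliding clamp, was highest at 416 ± 32.1 CPM per kb, and Orc1, a subunit of the origin recognition complex, was lowest at 5.23 ± 0.49 CPM per kb (SD, n = 3 each). After Pcna came Rrm2, the small subunit of ribonucleotide reductase, at 139 ± 21 CPM per kb, then Mcm6 at 118 ± 3.83, Mcm7 at 111 ± 3.48 and Slbp at 105 ± 5.48 CPM per kb. At the low end stood Gins3 at 9.94 ± 0.5, Pole at 8.67 ± 0.6 and Pole2 at 7.62 ± 0.87 CPM per kb. By the length of the principal transcript, Mcm6 and Mcm7 lay above Mcm2 (74.3), Mcm5 (73.3) and Mcm3 (70.2 CPM per kb). Mcm4 was lowest of the 6 at 46.9 ± 4.77 CPM per kb. This order depends on the length chosen, because the counts are over whole genes. The principal transcript is 3371 bases against 6956 exon bases in Mcm2, and 3589 against 3589 in Mcm4. The ranges of 32 of the 42 neighbouring pairs in this order overlapped, so the order within the middle of the list is not resolved by 3 libraries.

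**Figure D1:**
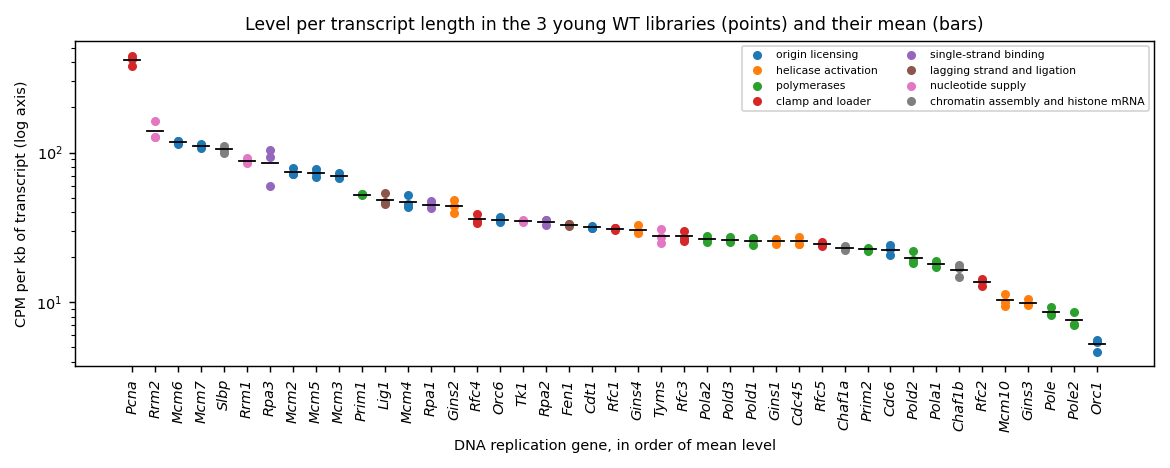
Level of each of the 43 DNA replication genes in the 3 young WT libraries, in CPM per kb of principal transcript (log axis), in order of the mean; points are libraries, bars are means and colours are roles. Pcna stands at 416 CPM per kb, above all others, and Orc1 is last at 5.23.

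The stretches before the start sites of 4 genes that were lower in METTL3 KO libraries with no age are shown because they are members of 3 roles and differ in the motifs they hold. Each run gives the 250 bases before the RefSeq start (build GRCm38.p6, strand of the gene), with matches to an E2F-type 8-mer or to a CCAAT box on either strand in capitals.
Mcm6 (chr1:128359706-128359955, minus strand): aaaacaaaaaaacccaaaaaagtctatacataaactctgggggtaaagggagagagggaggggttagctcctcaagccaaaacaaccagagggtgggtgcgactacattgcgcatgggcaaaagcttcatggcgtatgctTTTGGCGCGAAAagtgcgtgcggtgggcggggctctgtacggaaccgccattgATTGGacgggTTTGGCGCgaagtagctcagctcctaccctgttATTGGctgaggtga
Mcm5 (chr8:75109259-75109508, plus strand): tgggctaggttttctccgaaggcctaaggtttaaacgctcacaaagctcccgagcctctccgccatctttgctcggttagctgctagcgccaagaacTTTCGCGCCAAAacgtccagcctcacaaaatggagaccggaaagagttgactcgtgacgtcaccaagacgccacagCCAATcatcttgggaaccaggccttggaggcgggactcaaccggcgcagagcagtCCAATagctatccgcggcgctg
Pola1 (chrX:93632156-93632405, minus strand): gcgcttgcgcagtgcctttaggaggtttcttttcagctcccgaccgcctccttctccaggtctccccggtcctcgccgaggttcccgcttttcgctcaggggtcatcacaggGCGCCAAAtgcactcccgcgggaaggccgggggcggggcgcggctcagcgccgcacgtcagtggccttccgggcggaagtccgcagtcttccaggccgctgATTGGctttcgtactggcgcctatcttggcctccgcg
Rrm1 (chr7:102441445-102441694, plus strand): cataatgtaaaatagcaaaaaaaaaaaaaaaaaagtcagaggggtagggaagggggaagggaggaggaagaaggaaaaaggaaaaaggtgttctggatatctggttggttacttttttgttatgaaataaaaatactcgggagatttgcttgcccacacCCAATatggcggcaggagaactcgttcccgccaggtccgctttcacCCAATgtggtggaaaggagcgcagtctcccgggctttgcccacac

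The 8-mers searched, on both strands, were TTTCCCGC, TTTCGCGC, TTTGCCGC and TTTGGCGC, in windows of 300 bases that also take in the first 50 transcribed bases. In Mcm6 a pair of matches begins 110 and 106 bases before the start and overlaps, one on each strand, and another begins 47 bases before it. In Mcm5 the matches 153 and 149 bases before the start overlap in the same way, and Pola1 has 1 match, 138 bases before its start. Rrm1 holds none of the 4 words but has a pair of CCAAT boxes. RefSeq windows were matched for 36 of the 43 genes (not Gins1, Gins2, Gins4, Mcm4, Pole, Prim2 and Rfc2). Of these, 14 (38.9%) held an E2F-type 8-mer, against 704 of 27025 genes (2.6%) in the whole table, and 23 (63.9%) held CCAAT, against 41.1% of all genes. The whole table was not restricted to expressed genes. In Mcm3, Cdt1, Lig1, Pold1, Pold3 and Pole2 every 8-mer match lies after the start, in the first transcribed bases. In Mcm7, Lig1 and Cdc6 the stretch before the start, in the window with the match, lies inside the annotated gene. The 8-mer was held by 6 of the 16 genes lower in METTL3 KO with no age, 2 of the 4 higher and 6 of the 16 not called there. A match is a stretch of letters, not a bound site.

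The largest differences came from METTL3 KO and WT thymocytes with no age stated. Of the 43 genes, 17 were lower and 6 were higher in METTL3 KO (edgeR quasi-likelihood test, Benjamini-Hochberg adjusted p under 0.05 over 16432 genes), and the groups did not overlap in 17 that were lower (Gins2 in place of Fen1) and 6 that were higher. The background was large: 53.9% of all genes tested passed, 24% lower and 29.9% higher, and 29.5% and 34.3% did not overlap in these directions. The count called, 23 of 43, is near that background in total, with more genes lower and fewer higher. The median log2 fold change of the 43 genes was -0.34, against 0.08 for all genes. In mean log2 CPM over the 43 genes, METTL3 KO libraries stood at 5.75, 5.44 and 5.64 and WT libraries at 5.94, 6.09 and 5.91, a difference of -0.37 against a pooled SD of 0.13. The 3 METTL3 KO libraries lay below all 3 WT libraries. With no filter on low counts, which moved the median of all genes to 0.53, the split was 24 lower and 3 higher with a median of -0.54, and with library size as the only scaling it was 15 lower and 6 higher. In bulk RNA, fewer cells of a type and less RNA per cell cannot be told apart.

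**Figure D2:**
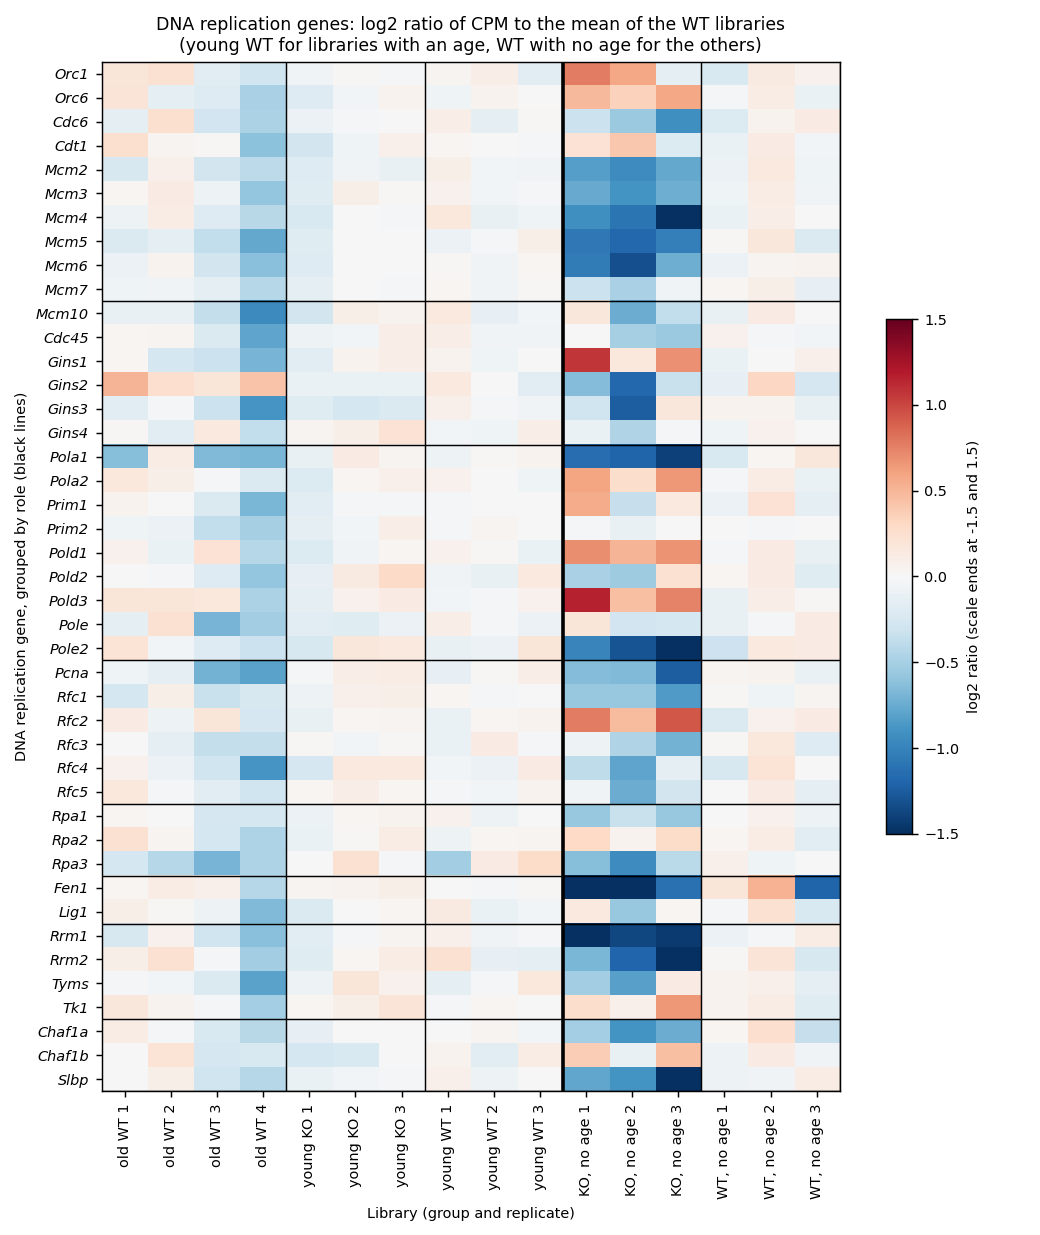
Each row is a DNA replication gene, grouped by role, and each column a library; colour is the log2 ratio of its CPM to the mean of the young WT libraries (10 libraries with an age) or of the WT libraries with no age (the other 6). Mcm2 to Mcm6, Pola1, Pole2, Rrm1, Rrm2 and Slbp are blue in all 3 METTL3 KO libraries with no age, Pold1, Pold3 and Rfc2 are red there, and old WT replicate 4 is blue in nearly every row.

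In origin licensing, the largest of the 8 roles, 6 of 10 genes fell, 1 rose and 3 did not pass in METTL3 KO with no age, against the 24% lower and 29.9% higher over all genes. Of the 6 subunits of the MCM2-7 ring, 5 fell. Mcm5 was at 89.8, 84 and 92.7 CPM in METTL3 KO libraries, against 192, 213 and 162 CPM in WT libraries. These groups lie far apart, and the log2 fold change was -1.09 ± 0.15 (SE; edgeR adjusted p = 0.000265). Mcm6 was at 118, 97.6 and 147 CPM in METTL3 KO and 229, 251 and 252 CPM in WT, a log2 fold change of -1.01 ± 0.17 (adjusted p = 0.00066). Mcm4 was at 78.4, 69.5 and 43.5 CPM in METTL3 KO and 139, 159 and 148 CPM in WT. Its change was -1.22 ± 0.21 (adjusted p = 0.000665), with replicate 3 of METTL3 KO lowest. Mcm2 and Mcm3 fell by 0.85 and 0.79 on the log2 scale, with no overlap between groups. Mcm7, the remaining ring subunit, was at 234, 208 and 282 CPM in METTL3 KO and 297, 311 and 268 CPM in WT, with overlapping groups and a log2 fold change of -0.28 ± 0.16 (adjusted p = 0.16).

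The loaders of the ring did not move as one. Cdc6, the ATPase that joins the origin recognition complex, was at 36.9, 31.4 and 24.3 CPM in METTL3 KO and 40, 48 and 50.5 CPM in WT. Its log2 fold change was -0.58 ± 0.19 (edgeR adjusted p = 0.0254). The call was lost with library size as the only scaling, with a replicate block, and without WT replicate 2 or 3. Orc6, the smallest subunit of the origin recognition complex, rose: 65.7, 59.8 and 70.4 CPM in METTL3 KO and 46.2, 51 and 43.9 CPM in WT, a log2 fold change of 0.47 ± 0.16 (adjusted p = 0.0233). That call was lost with no filter on low counts (edgeR adjusted p = 0.255) and with a replicate block. It was also lost without any 1 library other than METTL3 KO replicate 2 (highest adjusted p = 0.138). Orc1 had a log2 fold change of 0.45 ± 0.27 and Cdt1, which brings MCM to origins, of 0.16 ± 0.18, and neither passed. In Orc1, METTL3 KO replicate 3 lay at 9.45 CPM, inside the WT range of 8.82 to 11.4 CPM, while the other METTL3 KO libraries were at 17.7 and 15.5 CPM.

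Among the 6 genes of helicase activation, only Gins1 passed, and it rose, against 29.9% higher and 24% lower over all genes. This GINS subunit was at 44.8, 23.6 and 34.2 CPM in METTL3 KO and 19.9, 21.4 and 22.4 CPM in WT, a log2 fold change of 0.69 ± 0.23 (edgeR adjusted p = 0.0244). Its METTL3 KO libraries were spread widely. The call was lost with no filter on low counts, with a replicate block, and without METTL3 KO replicate 1 or any 1 WT library. Gins2 was at 7.68, 5.34 and 9.6 CPM in METTL3 KO and 11.1, 15 and 10.2 CPM in WT. Its log2 fold change of -0.68 ± 0.29 did not pass (edgeR adjusted p = 0.0641) although the groups did not overlap. Gins2 shares 67.3% of its exon length with Gse1 on the other strand, and the part of this overlap in its level was not tested. Mcm10, Cdc45, Gins3 and Gins4 had log2 fold changes of -0.27, -0.33, -0.34 and -0.18, and none passed.

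Of the 9 polymerase and primase subunits, 3 rose and 2 fell, near the 29.9% higher and 24% lower over all genes, and the called subunits of polymerase alpha went opposite ways. Pola1, the catalytic subunit of polymerase alpha, was at 23.5, 22.6 and 19.7 CPM in METTL3 KO and 44.5, 53.3 and 58.5 CPM in WT, a log2 fold change of -1.25 ± 0.18 (edgeR adjusted p = 0.000283). Pola2, the accessory subunit of the same enzyme, was at 92.6, 73.8 and 96.1 CPM in METTL3 KO and 60.5, 66.2 and 57.5 CPM in WT, a rise of 0.51 ± 0.16 on the log2 scale (adjusted p = 0.019). The groups lie apart in opposite directions for the 2 subunits. But the call of Pola2 was lost with no filter on low counts (edgeR adjusted p = 0.188) and with a replicate block. It was also lost without any 1 library other than METTL3 KO replicate 2 (highest adjusted p = 0.111). Prim1 and Prim2, the primase subunits, had log2 fold changes of 0.16 ± 0.22 and -0.04 ± 0.16 and did not pass.

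Pold1, the catalytic subunit of polymerase delta, rose. It was at 166, 146 and 164 CPM in METTL3 KO and 101, 111 and 94.8 CPM in WT, a log2 fold change of 0.63 ± 0.15 (edgeR adjusted p = 0.00362). Pold3, an accessory subunit, was at 169, 105 and 128 CPM in METTL3 KO and 70.5, 81.5 and 77 CPM in WT, a rise of 0.81 ± 0.19 on the log2 scale (adjusted p = 0.00356). All METTL3 KO libraries lay above all WT libraries in both genes. Pold2 was at 25.8, 25 and 42.3 CPM in METTL3 KO, on either side of the WT values of 37, 39.6 and 32 CPM. Pole2, the second subunit of polymerase epsilon, fell by 1.32 ± 0.29 on the log2 scale (adjusted p = 0.00283), with 6.28, 5.08 and 3.55 CPM in METTL3 KO and 9.99, 13.7 and 13.5 CPM in WT, on counts of 47 to 76 in METTL3 KO and 153 to 216 in WT. Pole, its catalytic partner, had a log2 fold change of -0.1 ± 0.18 and did not pass.

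Of the 6 genes of the clamp and its loader, 2 fell and 1 rose, against 24% lower and 29.9% higher over all genes. Pcna was at 310, 306 and 206 CPM in METTL3 KO and 499, 502 and 452 CPM in WT, a log2 fold change of -0.82 ± 0.18 (edgeR adjusted p = 0.0027). The annotation holds 2 Pcna pseudogenes, so the count of Pcna is uncertain by whatever reads they share. Rfc1, the large subunit of the loader, was at 80, 80 and 66.3 CPM in METTL3 KO and 121, 114 and 123 CPM in WT, a fall of 0.66 ± 0.15 on the log2 scale (adjusted p = 0.00338). Rfc2, a small subunit, was at 126, 103 and 140 CPM in METTL3 KO and 63.5, 77.6 and 80.7 CPM in WT. That is a rise of 0.74 ± 0.17 on the log2 scale (edgeR adjusted p = 0.00376). Rfc2 shares 15.1% of its exon length with Lat2 on the other strand, and whether reads of Lat2 enter its level was not tested. Rfc3, Rfc4 and Rfc5 had log2 fold changes of -0.39, -0.42 and -0.33 and did not pass. Of the 3 subunits of the single-strand binding protein RPA, 2 were called lower and none higher, against the same shares of all genes. These were Rpa1, which fell by 0.49 ± 0.14 (edgeR adjusted p = 0.0136), and Rpa3, by 0.64 ± 0.18 (adjusted p = 0.0112), both on the log2 scale. Rpa1 was at 145, 170 and 145 CPM in METTL3 KO and 217, 225 and 203 CPM in WT, and Rpa3 at 28.7, 23.3 and 33.9 CPM in METTL3 KO and 47.1, 42.8 and 44.5 CPM in WT. Rpa2, the middle subunit, had a log2 fold change of 0.21 ± 0.16, with overlapping groups.

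Nucleotide supply held the call with the smallest adjusted p of the 43 genes. Rrm1 (mm10, chr7:102441695-102469771, plus strand), the large subunit of ribonucleotide reductase, which makes deoxyribonucleotides, was at 70.2, 92.1 and 88.2 CPM in METTL3 KO and 224, 234 and 256 CPM in WT. That is 2.85-fold lower, a log2 fold change of -1.51 ± 0.16 (edgeR adjusted p = 7.81e-05). Its partner Rrm2 was at 186, 131 and 106 CPM in METTL3 KO and 304, 344 and 254 CPM in WT, a log2 fold change of -1.09 ± 0.21 (adjusted p = 0.00136). Tyms, which makes thymidylate and has 1 annotated pseudogene, and Tk1, which salvages thymidine, had log2 fold changes of -0.35 ± 0.22 and 0.35 ± 0.18 and did not pass. Tyms in METTL3 KO ran between 45.2 and 86.5 CPM, on both sides of the WT range of 71.6 to 83.4 CPM.

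Slbp, which binds the stem-loop of replication-dependent histone mRNA, was at 87, 80.3 and 49.1 CPM in METTL3 KO and 142, 145 and 162 CPM in WT, a log2 fold change of -1.06 ± 0.2 (edgeR adjusted p = 0.00143). Chaf1a, the large subunit of chromatin assembly factor 1, was at 36.7, 28.2 and 31.2 CPM in METTL3 KO and 53.4, 62.4 and 41.2 CPM in WT, a fall of 0.71 ± 0.2 on the log2 scale (adjusted p = 0.00995). It shares 52.5% of its exon length with Ubxn6 on the other strand, which was also lower, at 9.15 ± 3.38 CPM in METTL3 KO and 16.8 ± 2.23 CPM in WT (SD, n = 3 each), and whether reads of Ubxn6 enter the level of Chaf1a was not tested. Chaf1b, its partner, had a log2 fold change of 0.26 ± 0.19 with overlapping groups. Fen1, the nuclease that trims Okazaki fragments, was at 0.91, 0.53 and 1.51 CPM in METTL3 KO and 3.72, 4.71 and 1.43 CPM in WT, a log2 fold change of -1.72 ± 0.57 (adjusted p = 0.0243). The groups overlap, and the counts behind them are 6 to 20 in METTL3 KO and 22 to 74 in WT. The call was lost with a replicate block and without METTL3 KO replicate 1 or 2 or WT replicate 1 or 2. Fen1 shares 78.8% of its exon length with Gm10143 on the other strand, and the part of this overlap in its level was not tested. Lig1, the ligase that joins the fragments, had a log2 fold change of -0.1 ± 0.2 and did not pass.

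Of the 23 calls, 17 held under every alternative run, 14 of them lower and 3 higher (Pold1, Pold3 and Rfc2). The others were Cdc6, Fen1, Gins1, Orc6 and Pola2, and Rpa1, which was lost with library size as the only scaling (edgeR adjusted p = 0.0556).

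**Figure D3:**
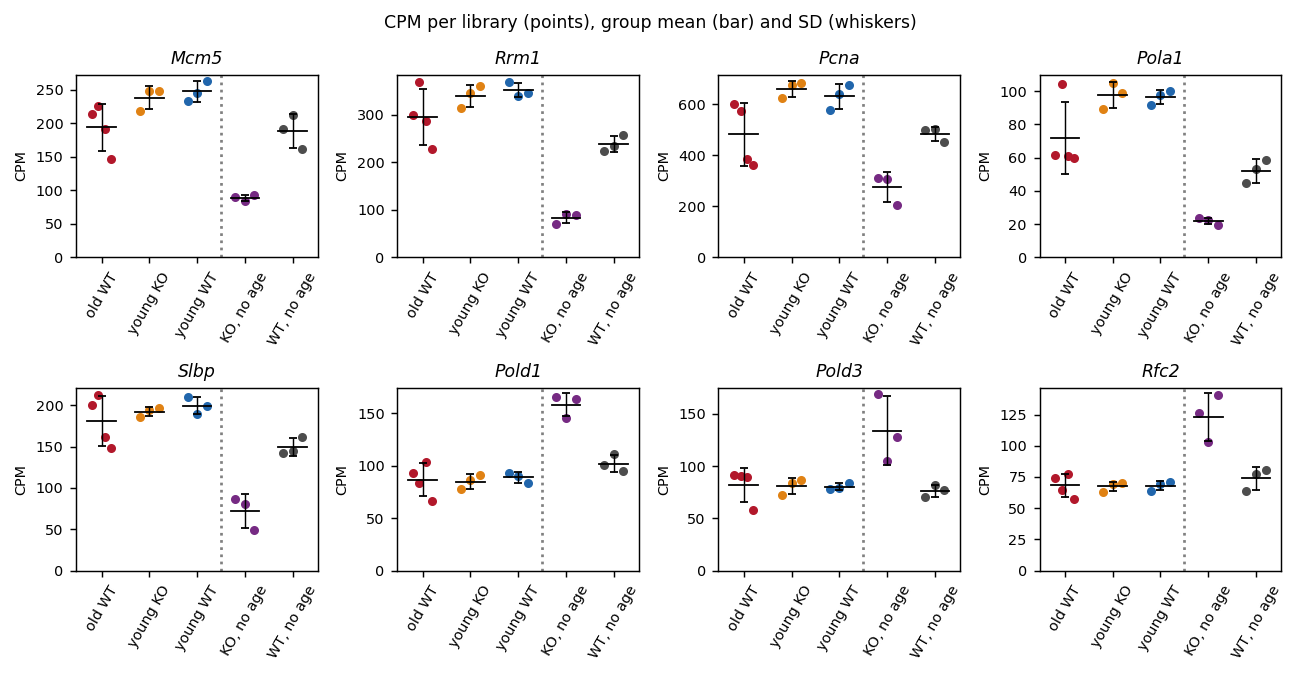
CPM of 8 DNA replication genes in each library (points), with the group mean (bar) and SD (whiskers); the dotted line parts the libraries with an age (left) from those without (right). In the set with no age, Mcm5, Rrm1, Pcna, Pola1 and Slbp lie lower in METTL3 KO than in WT and Pold1, Pold3 and Rfc2 lie higher, whereas in no gene do the libraries labelled young KO lie wholly apart from young WT.

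Other measures of the METTL3 KO group that has no age are given beside these calls, and their part in the differences was not tested. The counts of markers called stand against 29.9% higher and 24% lower over all genes. The summed DP markers lay between 7601 and 9305 CPM in METTL3 KO and between 13760 and 15244 CPM in WT. Of the 9 DP markers, 4 were called lower (Rag1, Rag2, Cd4 and Cd3e) and none higher, and 2 had log2 fold changes above 0. Rag1 fell by 2.44 on the log2 scale. The median DP marker was at 9.72, 9.99 and 9.73 log2 CPM in METTL3 KO libraries and 9.76, 9.81 and 9.70 in WT libraries. All 9 B-cell markers were detected in every METTL3 KO library, and 8 to 9 of them in each WT library. Of the 9, 8 were called higher, with a sum of 742 to 1163 CPM in METTL3 KO and 533 to 633 CPM in WT. Summed dendritic markers were 69.5 to 128 CPM in METTL3 KO and 22 to 39.9 CPM in WT (6 of 8 called higher), and summed myeloid markers were 34.9 to 44 CPM in METTL3 KO and 17.8 to 26.6 CPM in WT (2 of the 8 tested called higher). NK and gamma-delta markers summed to 121 to 160 CPM in METTL3 KO and 97.6 to 126 CPM in WT (1 of 5 tested called higher), and thymic epithelium markers to 8.75 to 13.5 CPM in METTL3 KO and 6.49 to 6.73 CPM in WT (1 of 3 tested called higher). Of the 8 early thymocyte markers 7 were tested and 1, Kit, was called higher, with sums of 34 to 64.5 CPM in METTL3 KO and 30.9 to 38.3 CPM in WT. Mature single-positive markers summed to 150 to 182 CPM in METTL3 KO and 269 to 338 CPM in WT (2 of 8 tested called lower). The calls in the myeloid, NK and gamma-delta, thymic epithelium, early thymocyte and mature single-positive lists are near or below those shares. METTL3 KO libraries also held more detected genes, 24778 to 25895 against 21748 to 23094 in WT. Of 20 mitosis genes, 12 were called lower and none higher, against the same 24% and 29.9%, and their mean log2 CPM was 6.18 to 6.41 in METTL3 KO and 6.76 to 6.88 in WT.

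The other replication genes, a list of 49 with helicases, topoisomerases, cohesion and nucleotide enzymes, had 15 called lower and 5 higher in this comparison, against 24% and 29.9% of all genes, with a median log2 fold change of -0.31 against 0.08 for all genes. Dck, which salvages deoxycytidine, fell by 1.78 ± 0.23 and Top2a, the topoisomerase of dividing cells, by 1.22 ± 0.16 on the log2 scale. Supt16, a subunit of the histone chaperone FACT, fell by 1.44 ± 0.18 and Pclaf, a PCNA-binding protein, by 1.41 ± 0.22. Rrm2b, the p53-inducible small subunit of ribonucleotide reductase, fell by 1.44 ± 0.31, beside Rrm1 and Rrm2. Samhd1, which breaks deoxyribonucleotides down, rose by 1.47 ± 0.24. Of 21 genes that drive or restrain entry into S phase, 10 were called lower and 1 higher. The 10 include the cyclins Ccna2 (-1.39) and Ccne2 (-1.04) and the repressors Rb1 (-1.66), Rbl2 (-1.43), E2f7 (-1.08) and E2f8 (-1.06), and the 1 higher was E2f2 (0.47).

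In old WT against young WT thymocytes, none of the 43 genes passed in edgeR or in DESeq2, and 36 of 14228 genes passed in edgeR (0.253%). At an unadjusted p under 0.05 there were 5 of the 43, 4 lower and 1 higher, against 4.65% of all genes lower and 7.41% higher. The sign leaned one way: 38 of the 43 log2 fold changes were below 0, against 6951 of the 14228 genes, with a median of -0.14 against 0.01 for all genes. Mitosis genes leaned the same way, with 16 of 20 below 0 and a median of -0.16. The mean log2 CPM over the 43 genes was 6.42, 6.43, 6.21 and 5.92 in old WT and 6.43, 6.39 and 6.43 in young WT, a difference of -0.17 against a pooled SD of 0.19. Replicates 3 and 4 were the low old WT libraries, and replicates 1 and 2 were level with young WT.

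**Figure D4:**
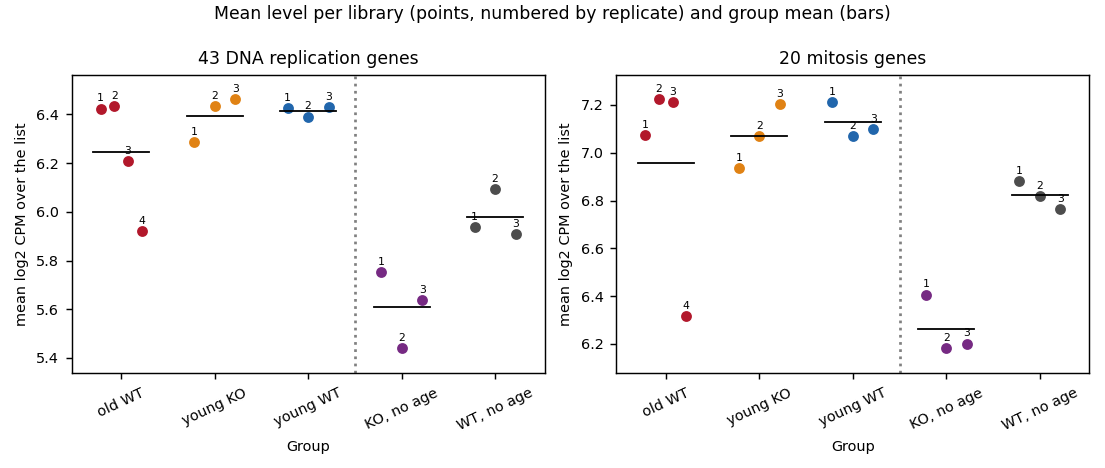
Mean log2 CPM over the 43 DNA replication genes (left) and over 20 mitosis genes (right) in each library (points, with the replicate number) and the group mean (bars); the dotted line parts libraries with an age from those without. Old WT replicate 4 is lowest of its group at 5.92 and 6.32, and METTL3 KO libraries with no age lie below WT in both panels.

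Old WT replicate 4 stood lowest. It had the lowest CPM of all 10 libraries in 38 of the 43 genes and lay below every young WT library in 41. Its median log2 ratio to the young WT mean was -0.48, against -0.22 in replicate 3, 0.03 in replicate 1 and 0.01 in replicate 2. Old WT replicate 3 lay below every young WT library in 33 genes, replicate 1 in 11 and replicate 2 in 7. These counts by library were made for the 43 genes alone. The share over all genes was not taken, so whether they are particular to the 43 genes was not tested. Without replicate 4 the difference in mean log2 CPM was -0.07, with 31 of the 43 log2 fold changes below 0, and without replicate 2 the difference was -0.23. The share of all genes below 0 without replicate 4 was not taken. The mitosis genes gave 6.32 in old WT replicate 4, against 7.07 to 7.22 in the other old WT libraries and 7.07 to 7.21 in young WT. Replicate 4 was lowest of the old WT libraries in summed B-cell markers, at 487.8 CPM, close to the 439.7 to 494.9 CPM of young WT, and summed DP markers ran from 10763 to 14116 CPM in old WT and 12383 to 14313 CPM in young WT. Replicate 3, with the high dendritic markers, had a myeloid sum of 250.8 CPM and a B-cell sum of 2116 CPM, and the part of these cells in its values was not tested.

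Taken by role, the genes with the smallest p in the age comparison were these. Mcm5 was at 213.7, 226.5, 191.6 and 146.1 CPM in old WT and 233.7, 245.7 and 264 CPM in young WT, so all old WT libraries lay below all young WT libraries, with a log2 fold change of -0.35 ± 0.13 (edgeR adjusted p = 0.337). Only 1 other gene, Prim2, was below in every old WT library, and 4.13% of all genes were. Rpa3 was at 48, 42.7, 35.4 and 41.5 CPM in old WT and 40, 62.7 and 69.5 CPM in young WT, a log2 fold change of -0.45 ± 0.17 (adjusted p = 0.337), with young WT replicate 1 inside the old WT range. Pcna was at 602.4, 575, 386.6 and 363.1 CPM in old WT and 578.6, 641 and 674.7 CPM in young WT, a log2 fold change of -0.39 ± 0.16 (adjusted p = 0.374). In Pcna the old WT libraries split into a high pair, within reach of young WT, and a low pair.

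Pola1 was at 61.7, 104.3, 61.1 and 59.9 CPM in old WT and 91.6, 97.6 and 100.1 CPM in young WT. Replicates 1, 3 and 4 of old WT lie close together and below young WT, and replicate 2 lies above it. The log2 fold change was -0.43 ± 0.17 (edgeR adjusted p = 0.37), and it passed without old WT replicate 2, at -0.67 with an adjusted p of 0.0106, the single call among the 43 genes in any alternative of this comparison. Rrm1 was at 298.3, 368.4, 286.5 and 227.3 CPM in old WT and 369.5, 339.6 and 346.4 CPM in young WT, a log2 fold change of -0.25 ± 0.13 (adjusted p = 0.454). Slbp and Lig1 had -0.14 ± 0.12 (adjusted p = 0.646) and -0.13 ± 0.15 (adjusted p = 0.753). Of the 48 other replication genes tested none was called in edgeR, and 2 were lower and 0 higher at an unadjusted p under 0.05. In 40 of them the log2 fold change was below 0, against 6951 of the 14228 genes, with a median of -0.1.

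Gins2 (mm10, chr8:120578633-120589304, minus strand) ran the other way. It was at 241.6, 203.2, 192.4 and 228.9 CPM in old WT and 187.9, 170.2 and 152.7 CPM in young WT, with all old WT libraries above all young WT libraries, as in 5.65% of all genes. Its log2 fold change was 0.35 ± 0.1 (edgeR adjusted p = 0.24), and old WT replicate 4, lowest for most of the 43 genes, was second highest here. Gins2 lies opposite Gse1 on the chromosome and shares 2758 of its 4097 exon bases with it. The strand setting of the counts is not stated, so reads of the 2 genes cannot be told apart, and Gse1 averaged 422.7 ± 75.1 CPM in old WT and 362.5 ± 40.2 CPM in young WT (SD, n = 4 and 3).

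In the libraries labelled young METTL3 KO, none of the 43 genes passed against young WT in edgeR or DESeq2, and neither did any of the 14228 genes in edgeR (0%). None of the 43 reached an unadjusted p under 0.05, against 88 (0.618%) of all genes. The spread behind these p-values was estimated over all 10 libraries with an age, so it also carries that of old WT. Replicate pairs differed by 13.5 to 72.5 chi-square per degree of freedom in old WT. In young WT this was 3.2 to 10.2, and in libraries labelled young METTL3 KO 3.36 to 6.04. None of the 43 was called in a fit of the 2 groups alone either. Log2 fold changes ran from -0.22 to 0.12, with 28 of 43 below 0 and a median of -0.02. The mean log2 CPM over the 43 genes was 6.29, 6.44 and 6.46 in libraries labelled young METTL3 KO and 6.43, 6.39 and 6.43 in young WT, a difference of -0.02 against a pooled SD of 0.07. The library labelled young METTL3 KO replicate 1 was lowest of its group in 37 of the 43 genes, and without it the difference was 0.03. The share of all genes in which this library was lowest was not taken.

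All 10 origin licensing genes had log2 fold changes below 0 in that comparison, as did 7149 of the 14228 genes. Their mean log2 CPM was 6.76, 6.92 and 6.93 in libraries labelled young METTL3 KO and 6.97, 6.90 and 6.92 in young WT, so replicate 1 was the low library and the others lay inside the young WT range. The largest change was that of Mcm2, at 218.5, 241.2 and 232.1 CPM in libraries labelled young METTL3 KO and 266.1, 243.7 and 241.8 CPM in young WT (-0.12 ± 0.11). In helicase activation Gins3 was at 22, 20.8 and 21.5 CPM in libraries labelled young METTL3 KO and 26.5, 24.5 and 24.2 CPM in young WT, the lowest value of the 43 genes at -0.22 ± 0.18 (unadjusted p = 0.227). Mcm2, Gins3 and Prim1 lay below young WT in every library labelled young METTL3 KO and Fen1 and Tk1 above, against 4.71% and 4.55% of all genes. For the remaining roles the smallest p belonged to Pole (-0.14 ± 0.19), Rfc5 (0.05 ± 0.11), Rpa3 (0.07 ± 0.18) and Chaf1b (-0.16 ± 0.14) on the log2 scale. The other replication genes gave 0 of 48 called, in edgeR, in this comparison (31 below 0, none at an unadjusted p under 0.05). The young WT libraries are shared with the age comparison.

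**Figure D5:**
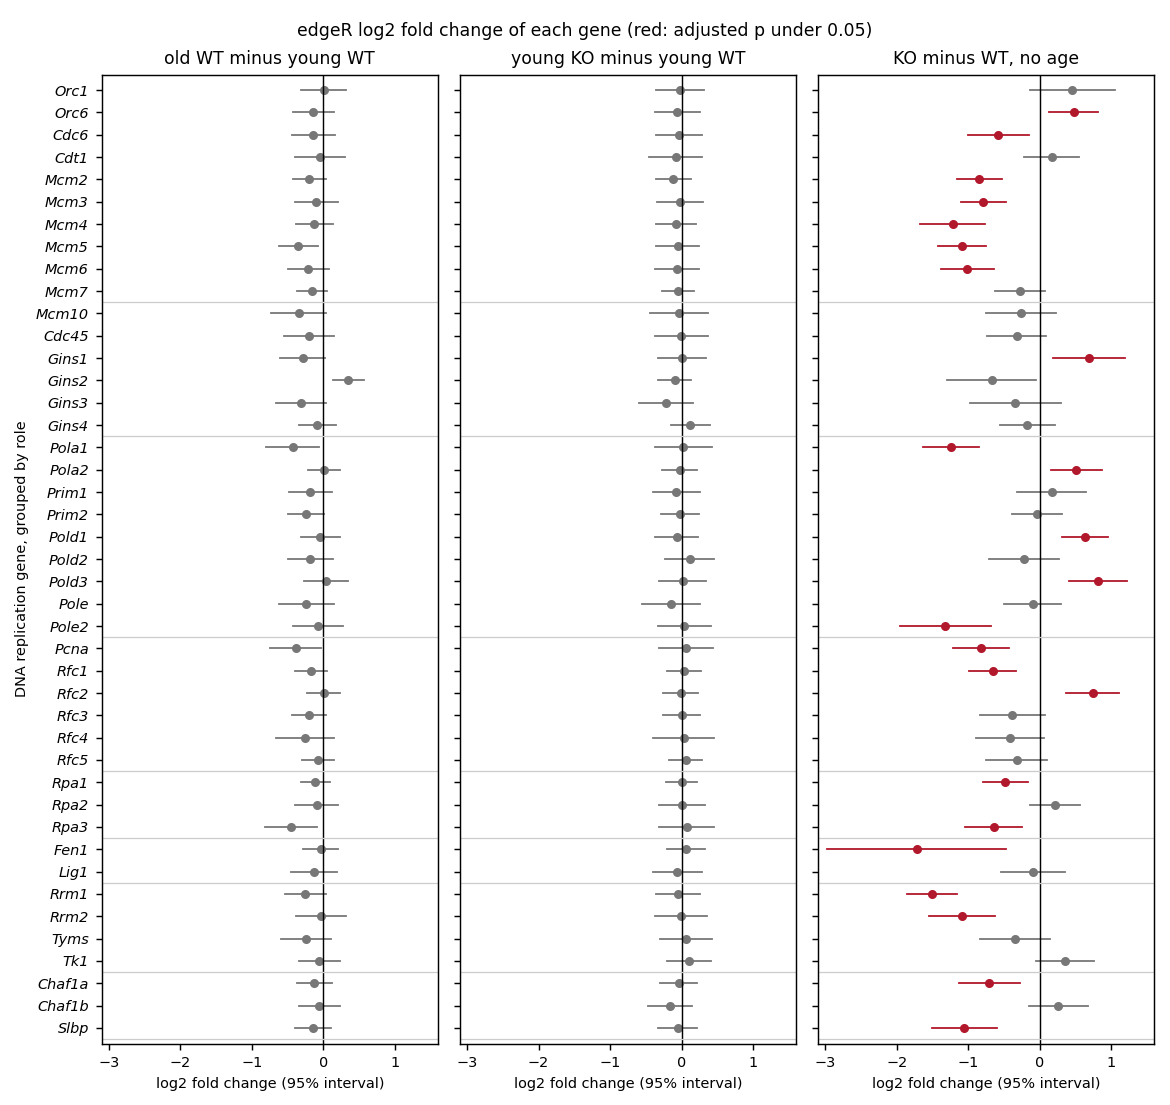
Log2 fold change of each of the 43 genes with its 95% interval (edgeR), for old WT minus young WT, young METTL3 KO minus young WT and METTL3 KO minus WT with no age; red marks an adjusted p under 0.05. None is red in the first and second panels, where most intervals span 0, and 23 are red in the third, 17 to the left of 0 and 6 to the right.

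Whether the METTL3 difference was unequal in the 2 sets was tested as an interaction over 12 libraries. Of the 43 genes, 20 passed (edgeR adjusted p under 0.05), 13 with a lower and 7 with a higher change in the set without an age, against 36.9% of 16557 genes, 17.7% lower and 19.2% higher. Rrm1 differed by -1.29 ± 0.16 on the log2 scale (adjusted p = 6.3e-05), Pola1 by -1.1 ± 0.18 (adjusted p = 0.00034), Mcm5 by -0.87 ± 0.16 (adjusted p = 0.000974) and Pold1 by 0.87 ± 0.15 (adjusted p = 0.000611). This fit scales all 12 libraries together, and its values lie 0.16 to 0.18 above the plain difference of the log2 fold changes fitted in each set. Scaled within each set, an alternative chosen after seeing the data, the median over all genes was 0.02 against 0.14, and 22 members passed, 16 lower and 6 higher, against 3580 lower and 2649 higher of the 16557 genes. Rrm1 was then at -1.43 and Pold1 at 0.74. Of the 20, 16 held under every alternative run, and Chaf1b, Gins1, Orc6 and Pola2 did not. The sets differ in age label, gene list and reads assigned to no gene feature. Reads not aligned made up 50.5% to 52.2% of entries without an age and 0.577% to 0.826% with one. The level of Mettl3 also differed between the sets, as given above, so what separates them cannot be told apart.

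The strand setting of the counts bears on genes with a neighbour on the other strand. In the annotation 14 of the 43 genes share exon bases with a gene on the other strand, and 3 share more than 25% of their exon length: Fen1 with Gm10143 (78.8%), Gins2 with Gse1 (67.3%) and Chaf1a with Ubxn6 (52.5%). These 3 stood apart between the sets. Fen1 averaged 78.2 CPM in young WT and 3.29 CPM in WT with no age, a ratio of 23.8, Gins2 170 and 12.1 CPM, a ratio of 14.1, and Chaf1a 128 and 52.3 CPM, a ratio of 2.45. In the other 40 genes that ratio ran from 0.77 to 1.85. Gm10143 averaged 78.8 CPM in young WT and 1.14 CPM in WT with no age. Ambiguous reads made up 1.14% to 1.3% of entries with an age and 1.88% to 2.29% without one. Whether reads of the partner genes enter these levels in 1 set, or reads of shared bases went uncounted in the other, was not tested.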

How the data were processed

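Bulk RNA-seq of sorted DP thymocytes was read from 16 deposited tables. Each holds the authors' raw read counts per gene, followed by 5 summary lines that were left out of totals and tests. These are reads assigned to no gene feature, ambiguous, low quality, not aligned and not unique. The submitters' processing notes name HISAT2 2.0.5 and mm10; no source used here gives the counting program, its annotation or its strand setting. The 2 sets of files list 55335 and 54532 identifiers, of which 55154 and 54409 matched GENCODE M21 symbols.

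Groups came from the labels. Counts were filtered with filterByExpr, scaled by TMM and tested with edgeR 4.0.16 (robust quasi-likelihood, two-sided, Benjamini-Hochberg over all genes, threshold 0.05) under R 4.3.3; DESeq2 1.42.0 was an alternative. Libraries with an age were fitted together and those without apart; 12 libraries entered the test of genotype by set. Log2 CPM used a prior count of 2. Levels per kb divide CPM by the longest principal transcript. The tests were also run on simulated counts with known changes, and the outcome is not given here. Replicate pairs all differed beyond counting noise. Genes given in full are those called and, per role, the smallest p in each comparison. The 43 genes and all lists were chosen with earlier results of these data known. Alternatives were other scalings, no filter, DESeq2, a replicate block, a fit of 2 groups alone, leaving out each library and, chosen after seeing the data, scaling within each set for the test of genotype by set. Promoter windows are from RefSeq (GRCm38.p6).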

Additional observations from a re-analysis of the deposited data

Results flagged for a closer look

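Pola1 was flagged because old WT replicate 2, at 104 CPM, stood far above the other old WT libraries, and Pold3 because old WT replicate 4, at 57.6 CPM, stood far below them. These are 2 of 43 genes, and chance flags about 1 in 20 groups.

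The METTL3 difference was unequal between the libraries without an age and the young ones, by the interaction test, in 20 genes. The value given is the log2 difference, METTL3 KO over WT with no age less young METTL3 KO over young WT, from a fit that scales the 12 libraries together, and it lies 0.16 to 0.18 above the plain difference of the fold changes fitted in each set. It was below 0 in origin licensing for Mcm2 (-0.56), Mcm3 (-0.60), Mcm4 (-0.97), Mcm5 (-0.87) and Mcm6 (-0.78), and above 0 for Orc6 (0.70). Among polymerase subunits it was -1.10 for Pola1 and -1.19 for Pole2, against 0.70 for Pola2, 0.87 for Pold1 and 0.96 for Pold3. It was -0.71 for Pcna, -0.52 for Rfc1 and 0.92 for Rfc2, and 0.86 for Gins1. Rrm1 (-1.29), Rrm2 (-0.91), Slbp (-0.82) and Fen1 (-1.61) were below 0, and Chaf1b (0.58) was above. The call of Chaf1b was lost with scaling within each set (0.46, edgeR adjusted p = 0.105).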

How the results depend on the processing

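Members called kept to within 1.5 times the main count under every alternative for METTL3 KO with no age (21 with library size alone, 27 with no filter, 18 to 28 with 1 library left out) and for the interaction (18 to 28), and stayed at 0 for young METTL3 KO. In the age comparison they were 0 to 1 with 1 library left out. Over all genes, the age comparison called 36, and 85 with no filter, 153 with DESeq2, 61 with a replicate block, 11 in a fit of the 2 groups alone and 8 to 59 with 1 library left out; young METTL3 KO called 0, and 1 with no filter. Same-numbered libraries correlated between -0.23 and 0.09 in their deviations from group means, so the numbers are not taken as pairs; with the replicate block, 18 members were called in METTL3 KO with no age (15 lower, 3 higher), and Lig1 in old WT changed sign, to 0.010 (log2). With a library left out, Rpa3 in young METTL3 KO ran from -0.13 to 0.23. Counts of 6 to 74 limit Fen1, and 3 to 4 libraries a group limit every test. Where a setting changed a value, the cause was not tested.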
